A study of Mus musculus with 8 samples.

Results

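The matrix metalloproteinases (MMPs), the ADAMTS proteases with their ADAMTS-like relatives, and the tissue inhibitors of metalloproteinases (TIMPs) were followed across FRCs given control, lactic acid or tumor-conditioned medium. The set was chosen with earlier results of these data known. Its members were then taken by gene symbol: Mmp genes, Adamts genes, Adamtsl genes and Timp1 to Timp4. This gave 51 of the 55367 genes in the count table (23 Mmp, 19 Adamts, 5 Adamtsl and 4 Timp). Of these, 26 had at least 10 counts in at least 3 libraries and were tested beside 12137 genes in all.

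Poly(A) RNA was sequenced from 1 fibroblastic reticular cell (FRC) line, the collagen-producing stromal cell of the lymph node, derived from p53ER/ER C57BL/6 mice, so all 4 groups carry that modified p53. For 4 days the cells grew in 1 of 4 media, all based on RPMI: medium taken from B16.F10 melanoma cultures (TCM), medium taken from FRC cultures (CCM), fresh medium with lactic acid (LA) at 15 mM, or fresh medium with water in its place (vehicle). Each group had 2 libraries, 8 in all, and the design compares TCM with CCM and LA with vehicle. The work is in culture, on a single line. The authors give the 2 libraries of a group as biological replicates, and the labels do not say whether they were separate cultures. P values therefore measure only the spread between these libraries.

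MMPs are zinc-dependent endopeptidases, secreted or held in the plasma membrane, that cut collagens, gelatin and other matrix proteins and are made as inactive zymogens. ADAMTS proteases are secreted relatives that cut proteoglycans such as versican and aggrecan or trim procollagens, while ADAMTS-like proteins share their ancillary domains without the protease. TIMPs bind the active site of these enzymes and block it, and TIMP3 is the one that stays bound to the matrix and is known for inhibiting ADAMTS proteases too.

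Libraries held 8232889 to 14107964 counts on genes, and a floor of detection of 3 counts equaled 0.212 to 0.355 CPM (counts scaled to a common library total). Reads carried no molecular identifiers, so this floor and the counting interval below cover counting error only. Pdpn, the stromal surface protein used to define the cells, stood at 114 to 187 CPM, and the collagen gene Col1a1 at 12570 to 17230 CPM. The FRC chemokines were close to absent: Ccl21a had 0 counts in all libraries and Ccl19 at most 1. The FRC markers Thy1 and Il7 were scarce too, at 1 to 16 and 5 to 26 counts per library. Vcam1 stood at 136 to 215 CPM, Pdgfra at 47 to 67 and Pdgfrb at 267.5 to 508.9. Summed markers of leukocytes came to 0 to 2 counts per library, of endothelium to 7 to 13 and of melanoma cells to 10 to 22. The melanoma sum was 11 to 12 counts under TCM and 15 to 22 under LA, and its part in the results was not tested. The TCM libraries differed more from each other than the pairs of the other groups (chi-square per degree of freedom 19.8, against 3.28 to 7.32). Expression was measured in bulk, where fewer cells of a kind and less RNA per cell cannot be told apart.

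Promoters were examined for what the members share apart from their protein family. RefSeq windows on GRCm38.p6, 250 bases before to 50 after a gene's start, were available for 16 of the 26 tested members (17 windows). The letters GGGCGG, read on both strands and known as the GC box, occurred in 15 of the 17 windows (88.2%), against 35.7% of all 32851 promoters and 63.6% of the 12015 promoters of tested genes. TATAAA occurred in 1 of the 17, that of Adamts1, beginning 32 bases before the start (13.6% of all promoters, 7.04% of those of tested genes). TGANTCA, the letters bound by AP-1 factors, occurred in 0 of the 17 (7.81% and 4.8%). ACGTG occurred in 2, those of Mmp14 and Timp1 (19.6% and 25.7%). The windows below are those of the gene with the largest rise under TCM, of 2 that fell, and of a collagenase gene without a count, shown for contrast. Adamts5, which also rose, has no window in the table. Capitals mark the GC box, TATAAA and the AP-1 letters on either strand. The windows lie at chr16:85803064-85803363 on the minus strand (Adamts1), and at chr8:95352046-95352345 (Mmp15), chr10:86300162-86300461 (Timp3) and chr9:7272264-7272563 (Mmp13) on the plus strand.
Adamts1: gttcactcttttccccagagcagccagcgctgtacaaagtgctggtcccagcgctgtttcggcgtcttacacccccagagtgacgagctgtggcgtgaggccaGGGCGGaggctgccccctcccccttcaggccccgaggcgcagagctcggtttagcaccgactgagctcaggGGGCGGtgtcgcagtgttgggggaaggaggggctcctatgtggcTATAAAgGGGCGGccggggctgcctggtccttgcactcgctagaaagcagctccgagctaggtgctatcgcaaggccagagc
Mmp15: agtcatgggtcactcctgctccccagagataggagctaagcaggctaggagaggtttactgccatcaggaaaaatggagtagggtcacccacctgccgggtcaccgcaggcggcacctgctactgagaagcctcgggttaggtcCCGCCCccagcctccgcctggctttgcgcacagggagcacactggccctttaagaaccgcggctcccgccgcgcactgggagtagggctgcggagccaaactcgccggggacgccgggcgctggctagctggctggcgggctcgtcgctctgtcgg
Timp3: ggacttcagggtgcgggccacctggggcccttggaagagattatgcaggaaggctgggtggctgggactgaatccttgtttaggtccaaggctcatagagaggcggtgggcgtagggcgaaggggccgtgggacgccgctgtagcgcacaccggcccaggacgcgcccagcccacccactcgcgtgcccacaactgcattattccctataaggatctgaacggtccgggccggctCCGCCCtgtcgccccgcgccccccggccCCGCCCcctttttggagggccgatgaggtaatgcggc
Mmp13: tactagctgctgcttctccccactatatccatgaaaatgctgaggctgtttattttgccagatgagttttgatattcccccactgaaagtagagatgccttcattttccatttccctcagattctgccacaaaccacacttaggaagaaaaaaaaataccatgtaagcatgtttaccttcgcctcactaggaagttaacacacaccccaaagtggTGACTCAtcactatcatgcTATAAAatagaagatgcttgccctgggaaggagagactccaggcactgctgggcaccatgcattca
The Adamts1, Mmp15 and Timp3 windows hold 3, 1 and 2 GC boxes, and the Mmp13 window none. A match describes letters in these windows and says nothing of a factor's binding.

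Members that could not be tested numbered 25, and 10 of them lay side by side. All 4 interstitial collagenase genes (Mmp1a, Mmp1b, Mmp8 and Mmp13) had 0 counts in every library. They belong to a run of 10 Mmp genes on chromosome 9, from 7272514 to 7699585 of GRCm38 (427 kb), which gathered 13 counts over all libraries, with 8 of the 10 at 0. Mmp3 (stromelysin 1) had 5 and 2 counts with CCM and 0 in the other 6 libraries, and Mmp27 at most 2 in any library. In this run 8 of 12 promoter windows held TGANTCA, 9 held TATAAA and 0 held GGGCGG. Their GC content was 37.7% to 52%, against 64.7%, 66% and 67% in the Adamts1, Mmp15 and Timp3 windows. Over all 17 windows of tested members it ran from 55% (Timp1) to 78.7% (Adamtsl3). Elsewhere Mmp21, Adamts3, Adamts8, Adamts13, Adamts18 and Adamts19 had 0 counts, so that 14 of the 25 untested members were never counted. The other 9, which are Mmp17, Mmp24, Mmp25, Adamts15, Adamts16, Adamts17, Adamts20, Adamtsl2 and Timp4, had no more than 5 counts in any library. Outside the run, GGGCGG did occur in windows of members without a count (Adamts3, Adamts13 and Adamts18) but not in that of Mmp21. Among the scarce members it occurred in the windows of Adamts20, Mmp24, Mmp25 and Adamtsl2 but not in those of Adamts17 and Timp4.

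Levels of the tested members, compared between genes as CPM per kilobase of exon, spanned from 0.347 (Mmp9) to 698 (Adamts1) as the mean over all libraries. Adamts1, a versican- and aggrecan-cleaving protease, was followed by the inhibitors Timp2 (388) and Timp3 (339), then by the gelatinase Mmp2 (225), Timp1 (183) and the membrane-bound collagenase Mmp14 (181). A gap separated these 6 from Adamts2 (60.8), the procollagen I N-proteinase, and Mmp23 (58.3). Neighbors within the first 6 changed places by group: Timp3 led in vehicle (555), ahead of Adamts1 (517), whereas with TCM Adamts1 stood at 1215 and Timp3 at 189. Vehicle libraries of Timp3 and Adamts1 overlapped on this scale in the plot of levels, so their order there does not exceed the spread.

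**Figure D1:**
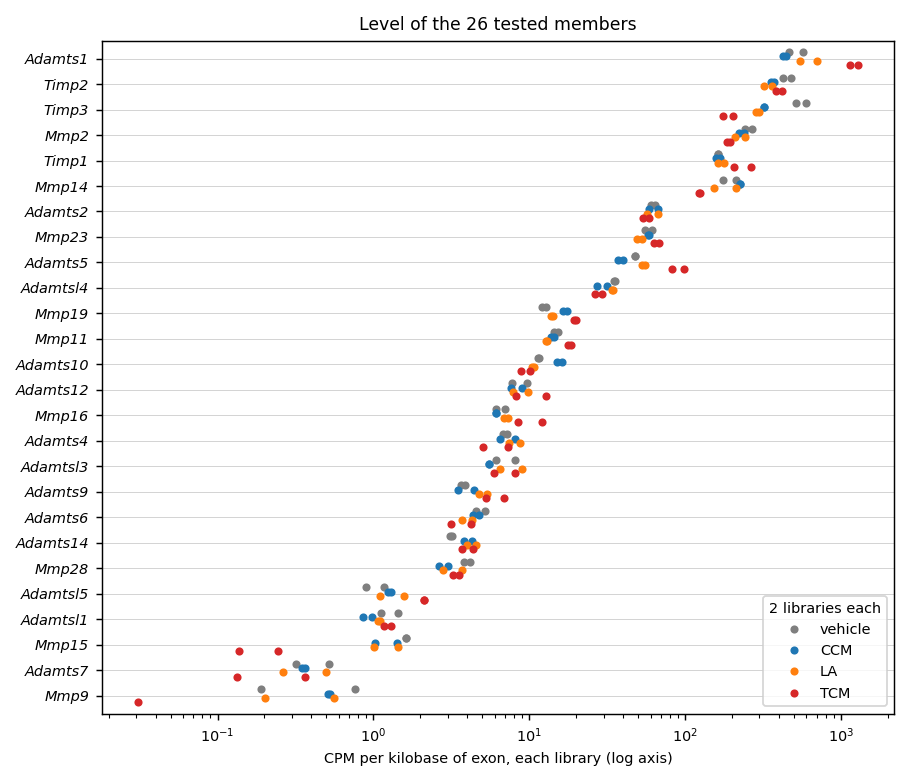
Level of each of the 26 tested members in every library, as CPM per kilobase of exon on a log axis, colored by group (2 libraries each); libraries at 0 (1 TCM library of Mmp9) are not drawn. Adamts1 lies highest, and the red TCM points stand apart to the right for Adamts1 and Adamts5 and to the left for Timp3, Mmp14 and Mmp15.

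With TCM, 11 of the 26 tested members (42.3%) changed against CCM by edgeR at an adjusted P under 0.05 and a log2 FC beyond 0.39, where 19.1% of all tested genes did. Members called higher numbered 6 (all genes, 8.83%), and they were Adamts1, Adamts5, Adamts9, Adamtsl5, Mmp16 and Timp1. Members called lower numbered 5 (all genes, 10.2%), and they were Mmp9, Mmp14, Mmp15, Adamts10 and Timp3. The median log2 FC of the tested members was 0.15, against 0.00 over all tested genes. The CPM ranges of TCM and CCM did not overlap for 20 members, as for 58.3% of all tested genes. With LA against vehicle, 1 member changed (Timp3, lower), against 2.55% of all tested genes (1.24% lower), and the median was −0.06. Exact permutation of 2 against 2 libraries cannot give a P below 0.333, so single genes rest on the fit across all genes.

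**Figure D2:**
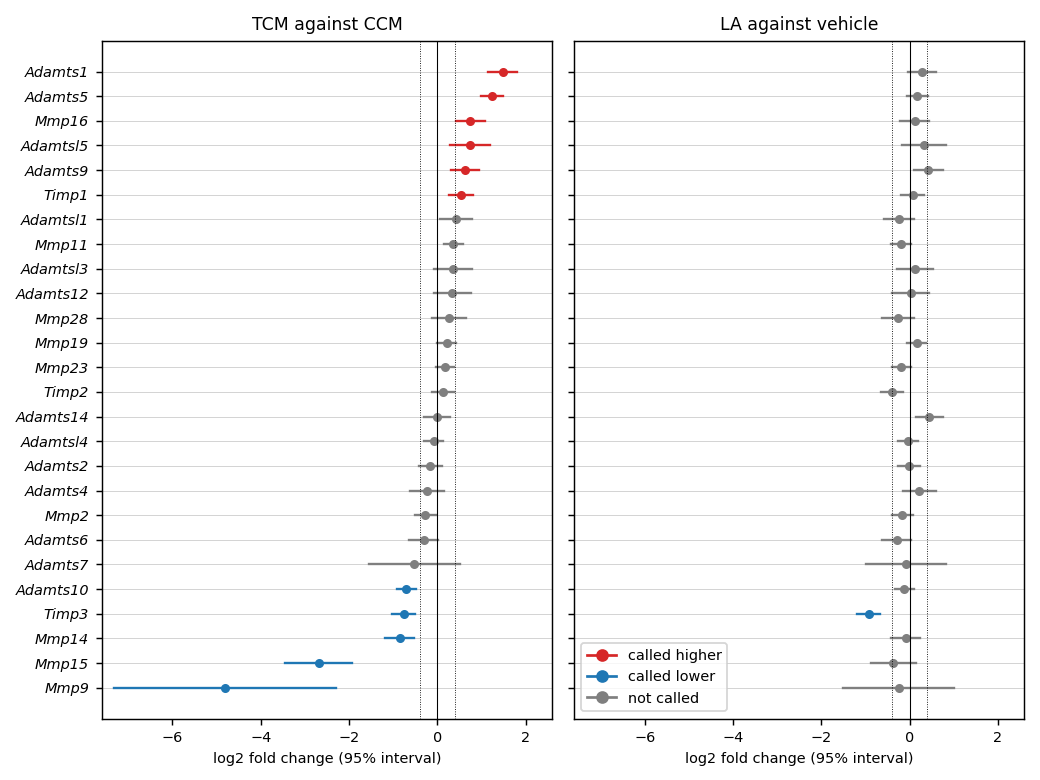
The log2 FC of the 26 tested members with its 95% interval from edgeR, for TCM against CCM (left) and LA against vehicle (right), in the order of the left panel; dotted lines stand at 0.39 in both directions. With TCM 6 members were called higher (red) and 5 lower (blue), and with LA 1 was called, Timp3.

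The largest rises among the tested members, with TCM against CCM, were those of the proteoglycan-cleaving ADAMTS proteases Adamts1 and Adamts5. Adamts1 was at 3011 and 2474 CPM in vehicle, 2355 and 2264 under CCM, 3719 and 2914 under LA, and 6027 and 6855 under TCM. Both TCM libraries lay above all 6 others. The rise with TCM measured 1.48 on the log2 scale (SE 0.15, adjusted P = 6.76e-05), whereas with LA the log2 FC was 0.27 (SE 0.14, adjusted P = 0.442). The difference between these effects, tested as an interaction, was 1.21 (SE 0.21, adjusted P = 0.00339).

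Adamts5, the principal aggrecanase of mouse cartilage, was at 513 and 518 CPM in vehicle, 431 and 400 under CCM, 592 and 574 under LA, and 895 and 1066 under TCM. Its TCM libraries were again the 2 highest, and its LA libraries lay between these and vehicle. The log2 FC was 1.24 with TCM (SE 0.11, adjusted P = 3.60e-05) and 0.18 with LA (SE 0.11, adjusted P = 0.537), and the interaction was 1.06 (SE 0.15, adjusted P = 0.00124). Adamts1 and Adamts5 are neighbors on chromosome 16, both on the minus strand (85793827 to 85803113 and 85856173 to 85901828), 53.1 kb apart with 0 protein-coding genes between them.

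Adamts9, a protease of versican, was at 54.6 and 58.1 CPM in vehicle, 66.1 and 52.7 under CCM, 80.2 and 71.5 under LA, and 79.3 and 104 under TCM. Every LA and TCM library exceeded every vehicle and CCM library. TCM raised it against CCM (log2 FC 0.63 with an SE of 0.15, adjusted P = 0.0117), a call kept in 15 of 20 alternatives. The call was lost with only the libraries compared (adjusted P = 0.0544) and by glmTreat, edgeR's test against the fold threshold (adjusted P = 0.173). It was also lost without CCM replicate 2 (log2 FC 0.47) and at stricter fold thresholds. With LA the log2 FC was 0.43 (SE 0.15), which missed the threshold (adjusted P = 0.201). It was called with no filter on low counts (adjusted P = 0.0169), with only the libraries compared (adjusted P = 0.0307) and without TCM replicate 1 (adjusted P = 0.0334) or 2 (adjusted P = 0.0332). The interaction was 0.20 (95% interval −0.26 to 0.66, adjusted P = 0.612). Exons of Adamts9 overlap A730049H05Rik and Gm15737 on the other strand over 12% of their length, and these had at most 7 and 1 counts. Adamts4, the other tested proteoglycan-cleaving member, had a log2 FC of −0.24 with TCM against CCM and was not called in any of these comparisons.

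Of the other 6 tested ADAMTS genes, 1 was called with TCM against CCM, Adamts10, and it was lower. Adamts2, which trims the amino propeptide of fibrillar procollagens, stood at 502 to 627 CPM over all 8 libraries, with a log2 FC of −0.16 with TCM (adjusted P = 0.363) and −0.01 with LA (adjusted P = 0.983). Adamts10, a fibrillin-associated protease, was at 93.7 and 95.8 CPM in vehicle, 133 and 124 under CCM, 88.5 and 85.6 under LA, and 73.6 and 83.8 under TCM. The CCM libraries were the 2 highest of the 8. It fell with TCM against CCM (log2 FC −0.71, SE 0.10, adjusted P = 0.000524), and the TCM value against vehicle was −0.27 (adjusted P = 0.0837). Against the same CCM libraries LA was lower too (log2 FC −0.56, SE 0.10, adjusted P = 0.0305), where 0.626% of all tested genes were called (0.33% lower). CCM against vehicle gave 0.44 (SE 0.10, adjusted P = 0.0553), just outside the threshold. This value was called by DESeq2 (adjusted P = 0.0487), without TMM factors (adjusted P = 0.0447), with no filter on low counts (adjusted P = 0.0175), with only the libraries compared (adjusted P = 0.000729) and without TCM replicate 1 (adjusted P = 0.00421) or 2 (adjusted P = 0.00404). Adamts6, Adamts7, Adamts12 and Adamts14 were not called in any comparison.

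Among the ADAMTS-like genes, which encode matrix proteins without a protease domain, 1 of 4 tested was called with TCM. Adamtsl5 was at 4.25 and 5.55 CPM in vehicle, 5.90 and 6.12 under CCM, 7.45 and 5.22 under LA, and 10.01 and 10.04 under TCM, from 38 to 95 counts. TCM libraries were the highest, and those of the other 3 groups overlapped in part. Its log2 FC of 0.74 (SE 0.21, adjusted P = 0.0275) was kept in 13 of 20 alternatives, the fewest of the 11 calls. It was lost without CCM replicate 1 (adjusted P = 0.157), CCM replicate 2 (adjusted P = 0.116) or TCM replicate 1 (adjusted P = 0.0509), and by DESeq2 (adjusted P = 0.0653). Adamtsl4 stood at 111 to 150 CPM, Adamtsl3 at 42.4 to 69.8 and Adamtsl1 at 11.0 to 18.5, with log2 FC of −0.09, 0.35 and 0.42 with TCM, none of them called.

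All 3 tested membrane-type MMPs changed with TCM, 1 higher and 2 lower. Mmp14 (MT1-MMP), a cell-surface collagenase that activates pro-MMP2, was at 1047 and 1258 CPM in vehicle, 1332 and 1336 under CCM, 913 and 1256 under LA, and 734 and 746 under TCM. Both TCM libraries were the lowest of the 8. Its log2 FC was −0.85 (SE 0.15, adjusted P = 0.00225), with −0.09 for LA (adjusted P = 0.870) and an interaction of −0.76 (SE 0.21, adjusted P = 0.0406). Mmp15 (MT2-MMP) was at 8.71 and 8.70 CPM in vehicle, 7.67 and 5.54 under CCM, 5.44 and 7.76 under LA, and 0.738 and 1.31 under TCM. These are 7 and 12 counts with TCM against 46 to 110 elsewhere, with no overlap. The log2 FC was −2.69 (SE 0.34, adjusted P = 0.0003), against −0.37 for LA (adjusted P = 0.557), and the interaction was −2.33 (SE 0.43, adjusted P = 0.00542). Mmp16 (MT3-MMP) went the other way, at 52.8 and 60.9 CPM in vehicle, 53.3 and 52.7 under CCM, 60.0 and 63.0 under LA, and 73.5 and 104 under TCM. Its log2 FC was 0.74 (SE 0.15, adjusted P = 0.00494), and the interaction was 0.63 (SE 0.21, adjusted P = 0.0865). This interaction was not called, but it was called by edgeR with no filter on low counts (adjusted P = 0.00543).

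**Figure D3:**
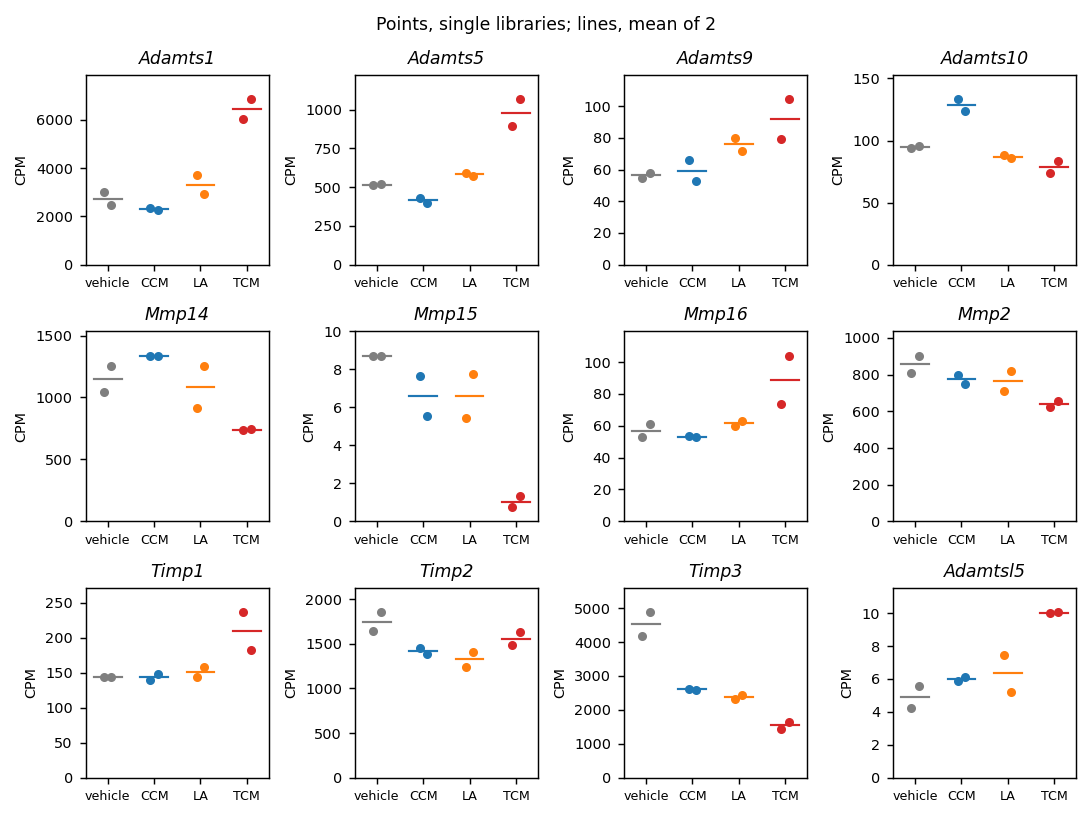
CPM of 12 named members in each library, by group; points are single libraries and lines the mean of the 2, with each axis from 0. TCM libraries stand above all others for Adamts1, Adamts5, Mmp16, Timp1 and Adamtsl5 and below all others for Mmp14, Mmp15, Mmp2, Adamts10 and Timp3, and the vehicle libraries of Timp3 are the 2 highest.

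Among the tested MMPs outside the membrane-type group, 1 of 6, Mmp9, was called with TCM against CCM. Mmp2 (gelatinase A), the most abundant of them, was at 811 and 902 CPM in vehicle, 800 and 749 under CCM, 709 and 817 under LA, and 625 and 655 under TCM. The TCM libraries were the lowest, but the log2 FC against CCM of −0.28 was not called (SE 0.11, adjusted P = 0.102). Mmp9 (gelatinase B) was scarce, with 6 and 29 counts in vehicle, 22 and 19 under CCM, 6 and 28 under LA, and 0 and 1 under TCM. The CCM counts, 41 in all against 1 with TCM, gave a ratio of 34.3 after scaling, with a counting interval of 5.81 to 1390. The call (adjusted P = 0.0122) was lost without TCM replicate 1 (adjusted P = 0.0718). Mmp11 (stromelysin 3) was at 42.2 and 39.9 CPM in vehicle, 39.9 and 38.2 under CCM, 36.1 and 35.7 under LA, and 48.9 and 51.3 under TCM. TCM was highest and LA lowest, and neither overlapped another group. The TCM log2 FC of 0.36 (adjusted P = 0.0258) did not reach the fold threshold and the LA value was −0.19 (adjusted P = 0.437). Their difference was called (interaction 0.55, SE 0.14, adjusted P = 0.0308), but the call was kept in only 8 of 19 alternatives and was lost by DESeq2 (adjusted P = 0.0751) and without TMM factors (0.41, adjusted P = 0.0978). Exons of Mmp11 overlap Chchd10 on the other strand over 5.58% of their length, and Chchd10 had 3 to 13 counts. Mmp23 stood at 116 to 159 CPM with no call, and Mmp19 and Mmp28 were likewise not called in these comparisons.

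The inhibitors did not move together. Timp3 was at 4170 and 4873 CPM in vehicle, 2622 and 2595 under CCM, 2324 and 2425 under LA, and 1434 and 1647 under TCM. Vehicle was highest and TCM lowest, and no pair of groups overlapped. It fell with TCM against CCM (log2 FC −0.76, SE 0.12, adjusted P = 0.00112) and with LA against vehicle (log2 FC −0.93, SE 0.12, adjusted P = 0.00283). It was also lower with CCM than vehicle (log2 FC −0.79, SE 0.12, adjusted P = 0.0235), the 1 member of 26 called there (1.3% of all tested genes, 0.404% lower). That last call was lost without any 1 of the 4 libraries compared, at adjusted P values of 0.0856 and 0.168 without vehicle replicates 1 and 2 and of 0.288 and 0.163 without CCM replicates 1 and 2. LA and CCM differed by −0.14 (95% interval −0.40 to 0.13, adjusted P = 0.757). The interaction was 0.17 (95% interval −0.20 to 0.54, adjusted P = 0.591). Because the CCM libraries serve as control in one comparison and as the tested group in another, these effects are not independent. Against vehicle directly, TCM gave −1.55 (SE 0.12, adjusted P = 2.18e-05).

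Timp3 exons overlap Syn3 on the other strand over 21.3% of their length. Syn3 had 13 to 107 counts where Timp3 had 13605 to 52679. Whether counting used the strand is not given in the sources used here, so reads in such overlaps may have been left out or assigned to either gene.

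Timp1 was at 144.1 and 144.2 CPM in vehicle, 140 and 149 under CCM, 144 and 158 under LA, and 237 and 182 under TCM. The other groups overlapped, and both TCM libraries lay above them. The log2 FC against CCM was 0.54 (SE 0.12, adjusted P = 0.0092). Without TCM replicate 1 the log2 FC was 0.34, under the fold threshold, and without CCM replicate 1 the adjusted P was 0.0908. Timp2 was at 1646 and 1852 CPM in vehicle, 1450 and 1388 under CCM, 1242 and 1414 under LA, and 1485 and 1630 under TCM. Vehicle held the 2 highest libraries. Neither the TCM value (log2 FC 0.13, adjusted P = 0.445) nor the LA value (log2 FC −0.40, SE 0.11, adjusted P = 0.106) was called. Their difference, the interaction, was 0.53 (SE 0.16) and just missed the threshold by edgeR (adjusted P = 0.0613). This interaction was called by DESeq2 (adjusted P = 0.0189) and by edgeR with no filter on low counts (adjusted P = 0.0118). DESeq2 did call the LA value (adjusted P = 0.0353), as did the fits without TCM replicate 1 (adjusted P = 0.0179) or TCM replicate 2 (adjusted P = 0.0174).

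Summed per kilobase of exon over all 51 members, the makeup of the group differed between media. TIMP genes made up 46.3% and 49.9% of the sum in vehicle, 41.5% and 42.4% under CCM, 36.2% and 39.2% under LA, and 31.8% and 29.5% under TCM. ADAMTS genes made up 30.1% and 25% in vehicle, 29.1% and 28.4% under CCM, 40.3% and 33.3% under LA, and 50.5% and 53.5% under TCM. MMP genes were at 16.4% and 15.6% with TCM and from 21.5% to 27.4% in the other 6 libraries. The TIMP sum itself was close between CCM (852 and 843 CPM per kilobase) and TCM (824 and 826), while the ADAMTS sum was 598 and 564 under CCM and 1308 and 1497 under TCM. Adamts1 alone made up most of the ADAMTS sum, at 444 and 427 CPM per kilobase under CCM and 1137 and 1293 under TCM. Of the 10 tested ADAMTS genes, 4 had a positive log2 FC with TCM against CCM and 6 a negative one. In vehicle the TIMP sum was 1097 and 1236. These sums and shares are given without a test. They describe RNA, not active protease or inhibitor.

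**Figure D4:**
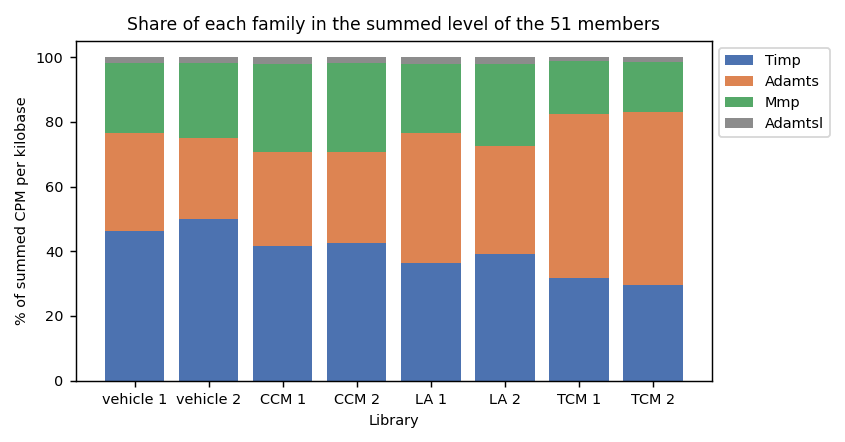
Share of each family in the summed CPM per kilobase of exon of the 51 members, 1 bar per library. Adamts1 alone makes up most of the ADAMTS sum in each library. The TIMP share lies at 46.3% and 49.9% in vehicle and at 31.8% and 29.5% with TCM, and the ADAMTS share at 30.1% and 25% in vehicle and 50.5% and 53.5% with TCM.

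The difference between the TCM effect and the LA effect was called for 6 of 26 members, where 10.4% of all tested genes were called. It was positive for 3 (4.45% of all genes), Adamts1, Adamts5 and Mmp11, and negative for 3 (6% of all genes), Mmp14, Mmp15 and Adamts10. The values for Mmp11, Mmp14 and Adamts10 lost their call without any 1 of several libraries. For Mmp11 adjusted P rose to as much as 0.14 (without CCM replicate 2, with calls lost also without CCM replicate 1 and without either vehicle or LA replicate). For Mmp14 it rose to as much as 0.168 (without vehicle replicate 1, with calls lost also without vehicle replicate 2, LA replicate 2 and either CCM or TCM replicate). For Adamts10 it rose to as much as 0.126 (without CCM replicate 1, with calls lost also without CCM replicate 2 and either vehicle or LA replicate). Adamts1, Adamts5 and Mmp15 were called without each library in turn. The interaction of largest size among the tested members, that of Mmp9 with its 0 and 1 counts under TCM, was −4.57 (SE 1.39) and missed the threshold (adjusted P = 0.0611). It was called with no filter on low counts (adjusted P = 0.000171), without TMM factors (adjusted P = 0.0455), without vehicle replicate 2 (adjusted P = 0.0187) and without LA replicate 1 (adjusted P = 0.0438). With vehicle as control, TCM changed 12 members (17.5% of all tested genes were called). Those 12 included Mmp2 (log2 FC −0.42, SE 0.11, adjusted P = 0.0213) and Mmp19 (log2 FC 0.66, SE 0.10, adjusted P = 0.00097), and lacked Adamts10. Most of the Mmp19 value was already present with CCM. Its edgeR log2 FC was 0.45 for CCM against vehicle (adjusted P = 0.05085) and 0.21 for TCM against CCM (adjusted P = 0.147), neither called. Mmp19 was chosen for mention after its value was seen, and 28.3% of its exon length overlaps Gm47093 and Tmem198b on the other strand, the latter with 271 to 481 counts against 383 to 735 for Mmp19.

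Of 31 further genes of the pathway (other inhibitors, activators, related metalloproteinases and their enhancers), 22 were tested, and 7 were called with TCM against CCM (9 by DESeq2), where 19.1% of all tested genes were called. With LA against vehicle, where 2.55% of all tested genes were called, 0 of the 22 were called by edgeR or DESeq2, and 6 had an unadjusted P under 0.05, as did 14.3% of all tested genes. Their median log2 FC was 0.05 with TCM and −0.04 with LA. Among inhibitors and clearance receptors, 1 of 3 was called: Reck, a membrane-anchored inhibitor of MMPs, rose to 49.4 ± 5.62 CPM in TCM, against 25.4 ± 0.0889 in CCM (SD, n = 2, log2 FC 0.96, adjusted P = 0.000382). Among activators and inducers, 3 of 7 were called. Pcsk6, a proprotein convertase of the furin family, rose from 22.6 ± 1.99 to 69.9 ± 9.01 CPM (SD, n = 2, log2 FC 1.63, adjusted P = 0.00019). In vehicle Pcsk6 stood higher than in CCM, at 34.7 ± 9.41 CPM (SD, n = 2). Against vehicle the edgeR log2 FC of TCM was 1.00 (adjusted P = 0.00374), and that of CCM was −0.62 (adjusted P = 0.172). Bsg (basigin, an inducer of MMPs) rose by 0.62 (adjusted P = 0.00412) and Plat (tissue plasminogen activator) fell by 0.68 (adjusted P = 0.00173), both as log2 FC. Among related metalloproteinases and enhancers, 3 of 12 were called, each lower. Adam12, a membrane-anchored ADAM protease, fell from 65.3 ± 10.4 to 20.7 ± 4.38 CPM (SD, n = 2, log2 FC −1.66, adjusted P = 0.000684), and Pcolce2, an enhancer of procollagen C-proteinases, from 26.8 ± 0.403 to 9.77 ± 3.32 (SD, n = 2, log2 FC −1.45, adjusted P = 0.000324). Bmp1, the procollagen C-proteinase itself, fell by 0.77 (log2 FC, adjusted P = 0.00019). The interaction was called for 5 of these 22 genes (10.4% of all tested genes), higher for Reck, Pcsk6 and Bsg and lower for Bmp1 and Pcolce2.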

How the data were processed

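RNA-seq covered 8 libraries of a mouse FRC line, 2 per condition. The authors aligned directional reads to GRCm38 with STAR 2.7.0a, counted them per gene with featureCounts (Subread 2.0.1; strand setting not given in the sources used here) and deposited raw counts. The other deposited table repeats those counts (100% of values identical) for 12137 genes and was not needed. Groups and replicate numbers were taken from the labels, and 0 columns were unused.

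The 12137 genes that reached 10 counts in 3 or more libraries were fitted with edgeR 4.0.16 in R 4.3.3 (TMM factors 0.938 to 1.04, quasi-likelihood, robust, all 8 libraries, 1 mean per condition), two-sided. P values were adjusted by Benjamini-Hochberg over all tested genes. Calls needed an adjusted P under 0.05 and a log2 FC beyond 0.39, the interaction included. SE is the log2 FC divided by the root of F; CPM uses TMM-scaled totals. Simulated counts were used to test the fit. Exon lengths, positions and overlaps come from GENCODE M21 (GRCm38), which matched all 51 members by symbol. Named members were those called in any main comparison, the tested TIMPs, and the 3 most abundant of each other family. Members and gene lists were chosen with earlier results of these data known. Alternatives included DESeq2 1.42.0, other scaling, filters and thresholds, a replicate block and leaving out each library.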

Additional observations from a re-analysis of the deposited data

Results flagged for a closer look

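For 6 members the effect of TCM (against CCM) and the effect of LA (against vehicle) differed by the interaction test in edgeR. The difference of log2 FC was 1.21 for Adamts1 (adjusted P = 0.00339), 1.06 for Adamts5 (adjusted P = 0.00124), 0.55 for Mmp11 (adjusted P = 0.0308), −0.58 for Adamts10 (adjusted P = 0.0214), −0.76 for Mmp14 (adjusted P = 0.0406) and −2.33 for Mmp15 (adjusted P = 0.00542). The controls of the 2 effects differ. For Adamts10 the CCM libraries (133 and 124 CPM) were above the vehicle libraries (93.7 and 95.8 CPM), and for Adamts1 they (2355 and 2264 CPM) were below (3011 and 2474 CPM). The CCM libraries of Adamts5 (431 and 400 CPM) were also below those of vehicle (513 and 518 CPM). Against vehicle directly, the edgeR log2 FC of TCM was 1.23 for Adamts1 (adjusted P = 0.000248) and 0.93 for Adamts5 (adjusted P = 0.000236). For Mmp11 the LA value (−0.19) and the TCM value (0.36) had opposite signs, and neither alone was called. The Mmp11 call was kept in 8 of 19 alternatives and lost by DESeq2 (adjusted P = 0.0751).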

How the results depend on the processing

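No called effect changed sign under any alternative run. Of the 19 called effects of named members, 312 results under alternatives kept the call and 59 lost it. Of 57 that were not called, 1085 stayed so and 37 became calls. Part of this tally was fixed in advance. On the same fit, dropping the fold threshold cannot lose a call, and a stricter one cannot add a call. Runs that omit a library outside a comparison hardly alter its log2 FC. The tally is therefore no measure of how stable the calls are. Adamts1, Adamts5 and Mmp15 kept their calls for TCM against CCM and for the interaction under every alternative that gave a value (Mmp15 could not be tested with 10 counts required in every library). For TCM against CCM (11 members called), glmTreat against 0.39 left 7 and a log2 FC beyond 1 left 4. For LA against vehicle (1), DESeq2, no filter on low counts and a fit of only the libraries compared each gave 2, and a log2 FC beyond 1 gave 0. For CCM against vehicle (1), DESeq2 and 10 counts in every library gave 2, no TMM factors and no filter gave 3, only the libraries compared gave 6, and glmTreat and a log2 FC beyond 1 gave 0. For the interaction (6), no filter gave 10, and glmTreat and a log2 FC beyond 1 gave 3. Leaving out 1 library at a time gave 9 to 13, 1 to 4, 0 to 3 and 3 to 10 members for these comparisons in turn. The cause of these shifts was not tested. Over all tested genes, calls over all alternatives and omitted libraries ranged from 760 to 2864 for TCM against CCM (main 2314), 56 to 656 for LA against vehicle (310), 0 to 679 for CCM against vehicle (158) and 625 to 2540 for the interaction (1268). Without TMM factors the median log2 FC of all genes with TCM moved to −0.14 and the higher share of calls from 46.3% to 24.2%; members split 5 higher and 6 lower instead of 6 and 5, with Mmp2 called (log2 FC −0.42) and Adamtsl5 not.

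Replicate numbers are shared between groups in the labels, but nothing there pairs the samples. Deviations of same-numbered libraries correlated at 0.42 between vehicle and LA, 0.15 between TCM and vehicle, 0.14 between LA and TCM, −0.07 for vehicle with CCM, −0.10 for CCM with LA and −0.32 for CCM with TCM. With the replicate number as a block, 11 members were called for TCM against CCM, 1 for LA against vehicle, 1 for CCM against vehicle and 7 for the interaction, Mmp9 being the added one (adjusted P = 0.0238). With the CCM numbers crossed in the block, an alternative added after seeing the data, these counts were 11, 3, 3 and 9. With 2 libraries per group, members near the floor such as Mmp9 are limited by counting error, and an uncalled effect may be one that this depth and replication could not show.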
